A study of Mus musculus with 12 samples.

Results

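The genes described here belong to 11 symbol families of the ubiquitin system: Usp, Trim, Fbxl, Fbxo, Fbxw, Rnf, Klhl, Cul, Herc, Ube2 and Ube3. A gene was a member if its symbol in any of the 4 deposited peak tables began with a family name followed by a digit or a lower-case letter. Members numbered 167 of 6097 genes with a listed m6A peak: 38 Rnf, 32 Usp, 29 Trim, 19 Klhl, 18 Fbxo, 11 Fbxl, 7 Ube2, 5 Cul, 4 Fbxw, 2 Herc and 2 Ube3 genes. The symbol rule also took in a few genes of another kind, such as Uspl1, a SUMO isopeptidase, Usp6nl, a Rab GTPase-activating protein, and Ube2m, a NEDD8-conjugating enzyme.

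The cells were J1 mouse embryonic stem (ES) cells grown on irradiated mouse embryonic fibroblast feeders with serum and LIF. Lentiviral shRNA against Mettl14, against Mettl3, or with a scramble sequence was introduced and stable lines were selected with puromycin, so all groups carry a virus and puromycin resistance. N6-methyladenosine (m6A) was mapped by immunoprecipitating fragmented poly(A) RNA with an anti-m6A antibody. The peaks come from 6 such libraries, 2 from Mettl14 knockdown cells, 2 from Mettl3 knockdown cells and 2 from scramble cells. Each knockdown library was set against a scramble library in a table of its own. Set 1 holds the Mettl14 and Mettl3 tables that share the first scramble library, and set 2 holds the pair that share the other. Mettl14 and Mettl3 results of a set therefore share a control and are given side by side without a measure of likeness. Nothing says whether the libraries of a group came from separate cultures, so the spread between them may be technical.

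Ubiquitin is passed from an activating enzyme to a conjugating enzyme (E2, the Ube2 genes) and then, with a ligase (E3), to a substrate. RING ligases such as many Rnf and Trim proteins bring E2 and substrate together, whereas HECT ligases such as Ube3 and Herc proteins carry ubiquitin themselves. Cullins are scaffolds whose substrate receptors include F-box proteins (Fbxl, Fbxo and Fbxw, on Cul1) and many BTB-Kelch proteins (Klhl, on Cul3), and Usp proteins remove ubiquitin. METTL3 and METTL14 form the complex that writes most m6A in mRNA, within a short consensus around GGAC, often in long internal exons and near stop codons.

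Overlapping peaks of a member gene in the 6 libraries were merged into 239 sites. A scramble peak was called lost in a table if no knockdown peak overlapped it by 1 nt or more on the same strand, a knockdown peak without such a partner was called new, and overlapping peaks were called shared. Enrichment is the authors' ratio of immunoprecipitate to input in a peak. Knockdown values are given as the authors scaled them, by 1 constant per table, and where a site held more than 1 peak in a library the highest is given. A log2 change is the authors' scaled difference between the paired knockdown and scramble peaks, with the longest overlap taken at such sites. Values of single peaks are the authors' own and are described below without a test. Coordinates are mm10.

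The short sequences below come from 12 of the named sites that hold GGACT. Each shows the GGACT nearest the site centre in capitals, with 12 flanking bases on either side, 5′ to 3′ on the transcript strand (GENCODE M21 transcripts, GRCm38). It lies up to 266 nt from that centre. Other named sites, such as Fbxo32 site 1 and Klhl36 site 1, hold no GGACT and are not shown. The first 3 lines are 3 sites of Fbxw7, of which site 1 was weaker in every knockdown library. The next 5 are sites that were lost or weaker in both tables of at least 1 knockdown, and the last 4 are sites that were higher in at least 1 table.
Fbxw7 site 1 (chr3:84815349-84815377, + strand, 5′ UTR): ggctcctcggcgGGACTccaggagttctc
Fbxw7 site 2 (chr3:84903824-84903852, + strand, coding): ttcagtagatgaGGACTcttcgggaaatc
Fbxw7 site 4 (chr3:84977505-84977533, + strand, stop codon window): gctcctggtgctGGACTttgatgtggaca
Fbxl5 site 1 (chr5:43758662-43758690, - strand, coding): acgagcactcttGGACTgaacctgtgtct
Klhl25 site 2 (chr7:75873274-75873302, + strand, 3′ UTR): agtcccccagcaGGACTctaggtccccca
Rnf219 site 1 (chr14:104479309-104479337, - strand, coding): aatctctgagctGGACTccatgatgtcag
Klhl2 site 1 (chr8:64740866-64740894, - strand, 3′ UTR): gtatttctgaagGGACTgagcgcctggcc
Rnf11 site 1 (chr4:109454331-109454359, - strand, stop codon window): catctatcacctGGACTgtatagatgact
Fbxo10 site 1 (chr4:45058835-45058863, - strand, coding): tttaatgtccttGGACTtagagagtcggg
Usp31 site 1 (chr7:121648784-121648812, - strand, coding): ctgggaagagcaGGACTtctgaccggagc
Trim45 site 2 (chr3:100925414-100925442, + strand, coding): tggcagatatgcGGACTggagtggagttc
Rnf144b site 1 (chr13:47244691-47244719, + strand, 3′ UTR): gccccacagtccGGACTgtgtctgtggag

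Member genes had fewer listed peaks in the knockdown libraries, but the libraries as a whole did too. Member peaks numbered 152 and 110 in the Mettl14 knockdown libraries of sets 1 and 2, 139 and 112 in the Mettl3 knockdown libraries, and 193 and 135 in the scramble libraries. Their number averaged 128 ± 20.6 in the knockdown libraries (SD, n = 4) and 164 ± 41.0 in the scramble libraries (SD, n = 2; two-sided exact permutation test, p = 0.267). The groups overlapped across sets, whereas within each set both knockdown libraries were below their own scramble library. With the scramble label permuted within sets the exact p was 0.111, the smallest that 9 arrangements allow. The members' covered length was 96.8 and 80.0 kb with Mettl14 knockdown, 94.3 and 81.4 kb with Mettl3 knockdown, and 145 and 114 kb in the scramble libraries, so these groups did not overlap. The covered length of all peaks separated in the same way, at 3386 and 3063 kb with Mettl14 knockdown, 3225 and 3052 kb with Mettl3 knockdown, and 5212 and 4254 kb in the scramble libraries. For members it averaged 88.1 ± 8.63 kb in the knockdown libraries (n = 4) and 129 ± 22.0 kb in the scramble libraries (n = 2), and the exact permutation p of 0.0667 is the smallest that 6 libraries allow. Counting every peak, assigned to a gene or not, the knockdown libraries held 4367 to 5717 peaks and the scramble libraries 7886 and 5438. Members therefore made up 2.59 ± 0.130% of the peaks of a knockdown library (n = 4) and 2.46 ± 0.0249% of those of a scramble library (n = 2; exact permutation p = 0.267).

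Neither targeted gene could be checked, since no table lists a peak for Mettl14 or Mettl3. Of 10 ES cell markers 4 had a listed peak (Sox2, Klf4, Esrrb and Fgf4), and of 10 fibroblast markers 3 did (Thy1, Pdgfra and Pdgfrb), so fibroblast markers were present in the peak lists, and the part of feeder RNA in the members' peaks was not tested. A peak list also cannot tell fewer cells of a kind from less RNA, or less methylation, per cell. The total number of reads per library is unknown from these tables. Member peaks for which tags were listed held between 5 and 555 tags.

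Most member genes carried a single site. Of the 167 genes, 110 had 1 site, 45 had 2, 9 had 3 and 3 had 4, namely Fbxw7, Rnf213 and Rnft2. Usp genes held 51 sites, of which 31 were coding and 11 in the 3′ UTR, and Rnf genes held 52, with 26 coding and 11 in the 3′ UTR. Trim genes held 45 sites, whereas the 5 Cul genes held 5. Herc and Ube3 genes held 3 and 2.

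Sites listed in every library and sites listed in a single library were the most frequent kinds. Of the 239, 64 (26.8%) were listed in all 6 libraries and 71 (29.7%) in a single library, against 24.5% and 31.5% of the sites of all genes. Sites seen more often were wider, with a median of 931 nt for those in 6 libraries and 411 nt for those in 1. A site is the union of its peaks, so merging peaks of more libraries can only widen it. The difference in width is therefore partly fixed by the definition. Fbxo sites were seen in all 6 libraries in 11 of 25 cases, Usp sites in 15 of 51 and Rnf sites in 11 of 52. Of the 9 Ube2 sites 2 were in all 6 libraries, and of the 5 Cul sites 1 was, that of Cul1. Each of the 2 Ube3 sites was listed in 1 library.

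**Figure D1:**
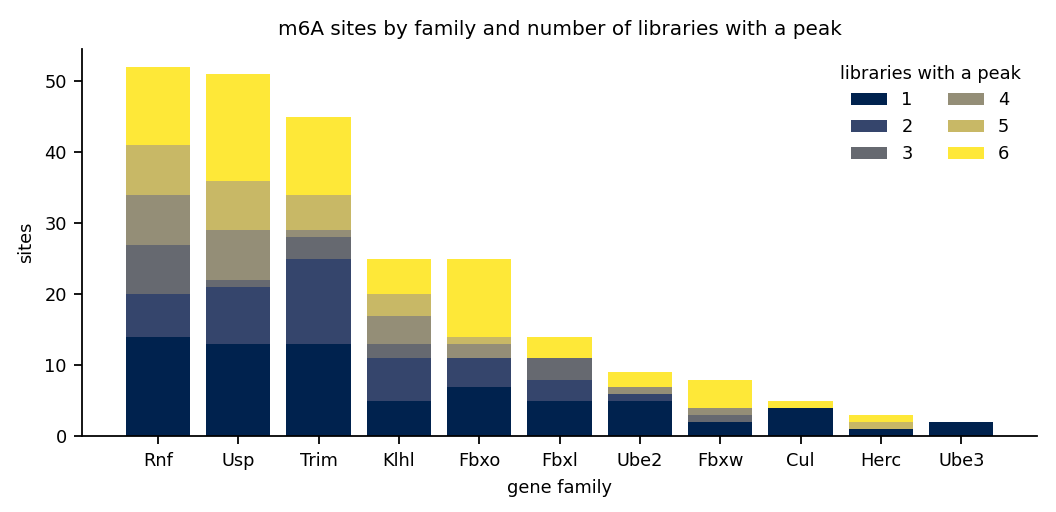
Number of m6A sites in each gene family, stacked by the number of libraries, of 6, in which a peak is listed. The palest segments are sites listed in all 6 libraries, 11 of 25 in Fbxo and 15 of 51 in Usp, and the darkest are sites listed in 1 library, 14 of 52 in Rnf.

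Of the 239 sites, 122 had their centre in coding sequence, 44 in the 3′ UTR, 28 within 100 nt of the stop codon and 18 in the 5′ UTR of the gene's longest coding transcript. A further 26 had their centre outside the exons of that transcript, and 1 gene, Rnf113a2, could not be placed. Some of the 26 still reached into its exons, such as Fbxw7 site 1 with 502 exonic nt. Of the 26, 5 had their centre in an exon of another transcript of the gene, 18 elsewhere within the gene and 3 outside it. The letters GGACT were present in 136 of the 223 sites that could be searched. In a 201-nt window at the peak centre, GGACT was present in 32.7% and 44.2% of member peaks with Mettl14 knockdown, 41.9% and 39.1% with Mettl3 knockdown, and 37.6% and 40.8% in the scramble libraries. Over all genes it was present in 32.8% to 35.5% of peaks. The reverse complement AGTCC, searched for comparison, was in 14.3% to 22.1% of member windows. A match is a description of letters and does not mark a methylated base.

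Between 3 and 4 of every 10 member scramble peaks had no partner in a knockdown library, slightly under the share of all peaks. With Mettl14 knockdown, 68 of 193 member peaks were lost in set 1 (35.2%, Wilson 95% interval 28.8% to 42.2%), where 43.3% of all scramble peaks and 38.9% of those assigned to a gene were lost. In set 2, 53 of 135 were lost (39.3%, 31.4% to 47.7%), against 45.9% of all peaks and 41.2% of gene-assigned peaks. With Mettl3 knockdown, 75 of 193 were lost in set 1 (38.9%, 32.3% to 45.9%), against 45.4% and 40.9%. In set 2, 40 of 135 were lost (29.6%, 22.6% to 37.8%), against 41.9% and 36.6%. Each interval holds the share of gene-assigned peaks, so at these counts the members could not be told apart from them. The intervals cover counting error only.

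New member peaks were fewer than lost ones in every table. After Mettl14 knockdown 20 of 152 (13.2%) and 29 of 110 (26.4%) member knockdown peaks were new, against 18.9% and 31.0% of all knockdown peaks and 15.2% and 26.5% of gene-assigned ones. After Mettl3 knockdown 17 of 139 (12.2%) and 15 of 112 (13.4%) were new, against 12.8% and 28.1% of all knockdown peaks and 10.8% and 23.7% of gene-assigned ones. In the Mettl3 table of set 2 the Wilson 95% interval of the member share, 8.29% to 20.9%, lay below the gene-assigned share. That difference was not tested over samples.

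Families differed in how many scramble peaks they lost, on small numbers. Usp genes, the largest deubiquitinase family, lost 9 of 42 and 10 of 28 peaks after Mettl14 knockdown and 12 of 42 and 7 of 28 with Mettl3 knockdown. Trim genes, RING ligases with a coiled coil, lost 16 of 36 and 10 of 25 after Mettl14 knockdown and 15 of 36 and 9 of 25 with Mettl3 knockdown. In each table the Usp share was below that of all members together and the Trim share above it. Against gene-assigned peaks the Trim share was not higher throughout. After Mettl14 knockdown it was 44.4% and 40.0%, where gene-assigned peaks lost 38.9% and 41.2%. With Mettl3 knockdown it was 41.7% and 36.0%, where they lost 40.9% and 36.6%. Rnf genes, a large and mixed set of RING proteins, lost 17 of 45 and 15 of 31 after Mettl14 knockdown and 17 of 45 and 11 of 31 with Mettl3 knockdown. Among substrate receptors, Klhl genes lost 7 of 20 and 10 of 19, then 8 of 20 and 9 of 19, in the same order of tables. Fbxo genes lost 5 of 20 and 4 of 15 with Mettl14 knockdown, and 7 of 20 and 1 of 15 with Mettl3 knockdown. The Fbxo share was below the Klhl share in each table. Fbxw genes lost 1 of 7 and 1 of 5 with Mettl14 knockdown, and 2 of 7 and 1 of 5 with Mettl3 knockdown. The E2 family Ube2 lost 5 of 7 peaks in set 1 and 0 of 3 in set 2 with Mettl14 knockdown, and 4 of 7 and 0 of 3 with Mettl3 knockdown. No difference between families was tested.

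**Figure D2:**
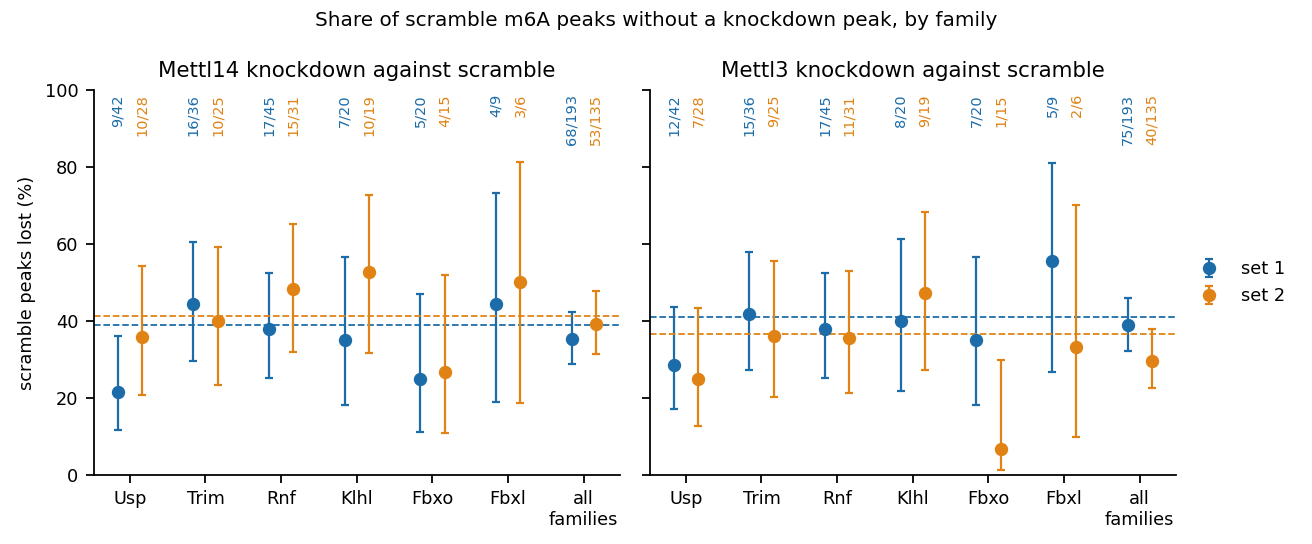
Percentage of scramble peaks lost in the 6 families with the most sites and in all families together, Mettl14 knockdown on the left and Mettl3 knockdown on the right, with the sets as separate points, Wilson 95% intervals as bars and the counts above. Dashed lines mark the share of all gene-assigned peaks lost in each table. In each of the 4 tables the Usp point lies below the Trim point and the Fbxo point below the Klhl point, with wide intervals.

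Lost member peaks were narrower than shared ones. In the Mettl14 tables their median width was 521 and 524 nt, against 702 and 823.5 nt for shared member peaks, and in the Mettl3 tables it was 502 and 504.5 nt, against 744.5 and 795 nt. The same held for all peaks, with 395.5 and 497 nt for lost and 692 and 820 nt for shared peaks in the Mettl14 tables, and 396 and 473 nt against 702 and 819 nt in the Mettl3 tables. Over all peaks, lost ones had a higher scramble enrichment than shared ones, with medians of 23.4 to 28.1 against 14.0 to 15.6. These medians include peaks assigned to no gene, so they do not describe a set like the members. Among members the medians were closer in set 1, at 12.5 for lost and 13.4 for shared peaks in the Mettl14 table and 13.4 and 13.2 in the Mettl3 table. In set 2 they were 13.7 and 11.5 in the Mettl14 table and 18.1 and 10.3 in the Mettl3 table. With either knockdown, peaks centred outside the exons of the transcript were lost in 10 of 12 cases in set 1. In set 2 they were lost in 4 of 5. Coding peaks were lost in 27 of 103 and 26 of 85 cases with Mettl14 knockdown, and 33 of 103 and 18 of 85 with Mettl3 knockdown. Over all genes 58.9% to 62.9% of the peaks centred outside exons and 30.4% to 34.5% of coding peaks were lost. The same order therefore held there. GGACT was in the central window of 34.5% and 38.8% of lost member peaks with Mettl14 knockdown, and 39.0% and 42.0% of shared ones. With Mettl3 knockdown it was in 30.8% and 30.6% of lost and 41.4% and 44.7% of shared member peaks. Over all peaks it was in 31.5% to 33.3% of lost and 33.6% to 34.5% of shared ones. These shares were not tested.

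Some members with scramble peaks in both sets lost every one of them. With Mettl14 knockdown 12 of the 101 members with a scramble peak in both sets did (11.9%), against 14.9% of all such genes, namely Usp49, Klhl2, Rnft2, Trim34a, Trim52, Fbxl15, Rnf11, Klhl36, Klhl21, Klhl22, Fbxl19 and Rnf126. With Mettl3 knockdown 7 of 101 did (6.93%), against 13.8% of all such genes, namely Usp49, Klhl2, Rnft2, Trim34a, Trim52, Klhl36 and Rnf121. Both lists rest on the same 2 scramble libraries.

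Usp49, a deubiquitinase that acts on histone H2B in human cells, had a narrow peak of 205 nt (chr17:47649952-47650156). The centre of this peak lay outside the exons of the transcript used, although 72 nt were exonic. No Mettl14 or Mettl3 knockdown library listed the peak, and its enrichment was 82.4 and 120 in the scramble libraries, from 14 and 16 tags. The same interval is listed under Gm20517, and knockdown peaks appeared elsewhere in Usp49: at its site 3 with 7.18 in the Mettl14 and 4.80 in the Mettl3 library of set 2, and at its site 2 with 22.3 in the Mettl3 library of set 1. Klhl2, an actin-binding Cul3 receptor, had a 3′ UTR peak (chr8:64740599-64741064) that no knockdown library listed. Its scramble enrichment was 7.37 in set 1 and 123 in set 2, so the scramble libraries themselves were far apart. Rnft2, a RING protein with transmembrane segments, had a 3′ UTR site (chr5:118192754-118193206) with no peak in any knockdown library and 32.9 and 48.4 in the scramble libraries. The Mettl3 library of set 2 listed a peak of 54.8 from 12 tags just upstream of it, at site 2.

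The coding site of Trim34a (chr7:104247549-104248182), a Trim gene of the interferon-induced cluster, was listed in the scramble libraries alone, at 26.6 and 43.7. The coding site of Trim52 (chr14:106106858-106107313) likewise had no knockdown peak, and 35.7 and 30.95 in the scramble libraries. Klhl36, a further Klhl gene, had no knockdown peak at its coding site (chr8:119869629-119870720), and 11.9 and 16.0 in the scramble libraries. At these 3 sites the scramble peaks held 35 to 107 tags. The median of member scramble peaks with listed tags was 70 in set 1 and 77.5 in set 2. Whether the losses depend on coverage was not tested.

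Other genes met this rule in the Mettl14 tables and not in the Mettl3 tables. Rnf11, a small RING protein that binds Nedd4-family ligases, has its site on the stop codon (chr4:109454174-109454520). It had no peak with Mettl14 knockdown, 19.5 and 6.03 with Mettl3 knockdown, and 9.28 and 22.8 in the scramble libraries, so the Mettl3 values lay on both sides of the controls. Fbxl15, a receptor for the ligase Smurf1 in human cells, had no Mettl14 knockdown peak at its stop codon site (chr19:46330055-46330437), 104 with Mettl3 knockdown in set 1 and none in set 2, and 29.6 and 27.6 in the scramble libraries. The 3′ UTR site of Fbxl19, which binds CpG islands in ES cells, was listed with Mettl3 knockdown in set 2 at 3.52, in no other knockdown library, and at 8.18 and 5.96 in the scramble libraries. Rnf121 was lost in both Mettl3 tables. Its stop codon site had 16.2 with Mettl14 knockdown in set 1, no peak in the other 3 knockdown libraries, and 14.4 and 12.1 in the scramble libraries. No difference between the knockdowns was tested.

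The tables as a whole were shifted, and the members' shared peaks followed. On the log2 scale the authors' constants are −0.14 and −0.36 in the Mettl14 tables of sets 1 and 2, 0.0042 in the Mettl3 table of set 1 and −0.72 in that of set 2. The median log2 change of all shared pairs was −0.06 and −0.59 in the Mettl14 tables and 0.22 and −0.91 in the Mettl3 tables. Among members it was −0.00053 and −0.46 in the authors' deposited Mettl14 tables and 0.27 and −0.76 in the Mettl3 tables. Of the members' shared pairs, 68 of 136 and 75 of 84 were lower with Mettl14 knockdown, against 54.6% and 84.8% of all pairs, and 39 of 124 and 91 of 99 were lower with Mettl3 knockdown, against 35.2% and 93.0%. Set against the median of its own table, 62 of 136 and 32 of 84 member pairs were below it with Mettl14 knockdown, and 59 of 124 and 44 of 99 with Mettl3 knockdown. Changes below are as deposited, and values relative to the table's median are added where a sign turns.

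**Figure D3:**
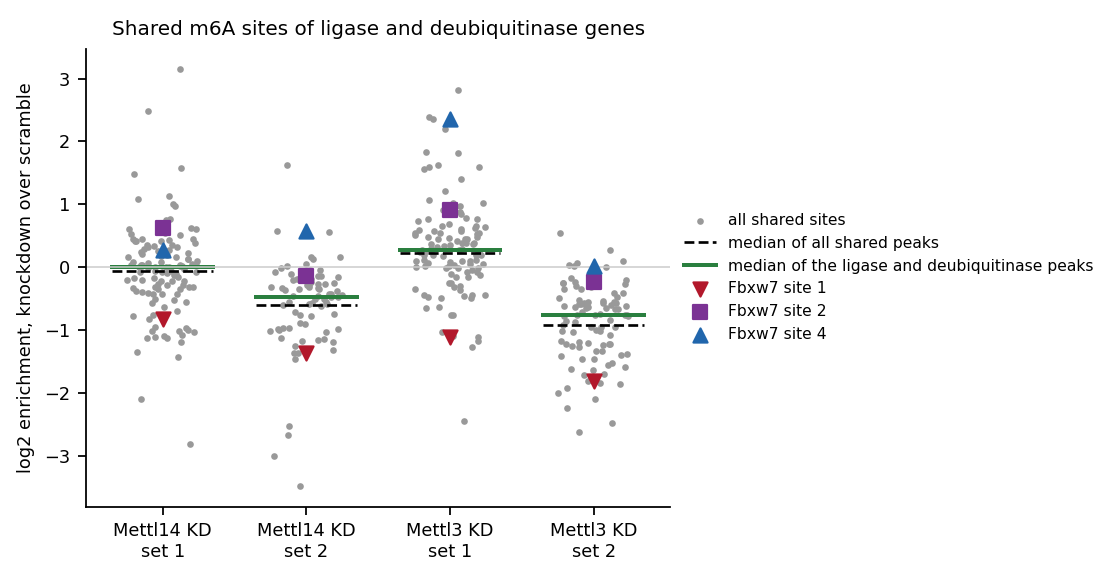
Authors' deposited log2 change of each shared member site (grey points) in the 4 tables, with the median of the members' shared peaks as a solid line, the median of all shared peaks as a dashed line and 3 Fbxw7 sites marked. The solid and dashed lines lie close together in each table and move with it, down to −0.76 and −0.91 in the Mettl3 table of set 2.

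Members were lower in both sets no more often than genes at large. A gene was called lower in a table if all its listed peaks were lost or lower. By the authors' deposited Mettl14 tables, set 1 had 83 of 152 members lower, against 57.8% of all genes, and 43 higher, against 27.4%. In set 2, 89 of 127 were lower, against 70.5%, and 23 were higher, against 19.8%. By the Mettl3 tables, set 1 had 63 of 154 lower, against 49.6%, and 58 higher, against 34.7%. In set 2, 91 of 114 were lower, against 75.6%, and 11 were higher, against 16.0%. In each knockdown, set 2 had the larger share of lower genes. In both sets 43 of 116 members (37.1%) were lower, against 41.7% of all genes. With Mettl3 knockdown 27 of 108 (25.0%) were lower in both sets, against 33.5%. Higher in both sets were 5 members with Mettl14 knockdown, against 7.60% of all genes, namely Fbxl17, Klhl24, Trim32, Usp34 and Usp9x. With Mettl3 knockdown 8 were, against 5.82%, namely Klhl24, Rnf139, Rnf144b, Trim2, Trim36, Usp15, Usp34 and Usp9x. With each table's median set to 0, the counts of lower and higher genes became 31 and 16 after Mettl14 knockdown, against 31.9% and 15.7% of all genes, and 23 and 18 with Mettl3 knockdown, against 31.2% and 14.8%. Among families, 14 of 25 Rnf genes were lower in both sets after Mettl14 knockdown and 9 of 25 with Mettl3 knockdown, whereas 4 of 25 and 5 of 23 Usp genes were. Fbxo genes were lower in both sets in 3 of 15 cases after Mettl14 knockdown and 0 of 13 with Mettl3 knockdown. These family counts are as deposited, and no difference between families was tested. The call needs every listed peak to be lost or lower, and Usp genes had 1.59 sites per gene, Rnf genes 1.37.

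At the level of sites, 73 were shared in both Mettl14 tables and 77 in both Mettl3 tables. Of the 73, 34 were lower in both sets, against 50.1% of all sites, and 5 were higher, against 7.69%. Of the 77, 23 were lower in both sets, against 33.7%, and 4 were higher, against 3.69%. Relative to the table medians 15 were lower in both sets and 28 higher with Mettl14 knockdown, against 29.6% and 29.9% of all sites. With Mettl3 knockdown 21 were lower and 24 higher, against 29.7% and 27.8%.

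Fbxw7, the F-box receptor through which the SCF ligase targets cyclin E, Myc and Notch, carried 4 sites with differing values. Site 1 (chr3:84814462-84815856) begins upstream of the annotated gene start and covers a 5′ UTR exon of 1 of its transcripts. Its enrichment was 15.5 and 9.21 with Mettl14 knockdown, 12.7 and 6.76 with Mettl3 knockdown, and 27.4 and 23.5 in the scramble libraries, so every knockdown value was below both scramble values. The authors' deposited log2 changes were −0.82 and −1.35 after Mettl14 knockdown and −1.11 and −1.80 with Mettl3 knockdown. Relative to the table medians these were −0.76 and −0.76, and −1.33 and −0.89. The knockdown peaks were also narrower, at 57.5% and 48.4% of the scramble width after Mettl14 knockdown and 49.9% and 35.8% with Mettl3 knockdown, so the enrichments were taken over different lengths.

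Site 2 of Fbxw7 (chr3:84903494-84904118), in coding sequence, had 11.7 and 7.26 with Mettl14 knockdown, 14.2 and 6.78 with Mettl3 knockdown, and 7.57 and 7.99 in the scramble libraries. Here the values overlapped, with the set 1 knockdown libraries above both controls and the set 2 libraries below. The authors' deposited log2 changes were 0.63 and −0.14 after Mettl14 knockdown and 0.91 and −0.24 with Mettl3 knockdown. Relative to the table medians these were 0.69 and 0.46, and 0.69 and 0.68. Site 4 (chr3:84977248-84977916), around the stop codon, had 18.3 and 18.7 with Mettl14 knockdown, 77.4 and 12.7 with Mettl3 knockdown, and 15.1 and 12.6 in the scramble libraries. Its peaks had 96.1% to 100% of the scramble width. The authors' deposited log2 changes were 0.27 and 0.58 after Mettl14 knockdown and 2.35 and 0.01 with Mettl3 knockdown, and relative to the table medians 0.34 and 1.17, and 2.13 and 0.93. A further coding peak, site 3, was listed with Mettl14 knockdown in set 1 alone, at 19.4. In each of the 4 tables, then, site 1 had the lowest change of the 3 shared sites and lay below the table median while sites 2 and 4 lay above it. Whether the sites differ was not tested.

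**Figure D4:**
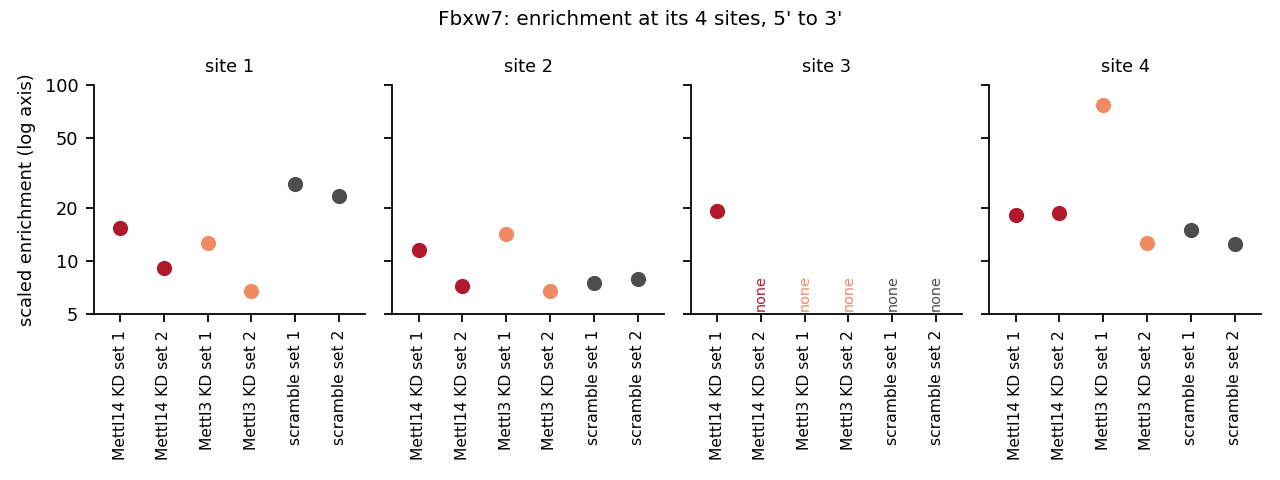
Scaled enrichment (log axis) at the 4 Fbxw7 sites in 5′ to 3′ order, with the knockdown libraries left of the scramble libraries. At site 1 the knockdown libraries lie between 6.76 and 15.5 and the scramble libraries at 27.4 and 23.5, whereas at sites 2 and 4 the groups overlap, and site 3 has a peak in 1 library.

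Other sites were weaker in knockdown libraries as deposited. Rnf219, a RING protein that ubiquitinates the origin recognition complex in human cells, had a wide coding site (chr14:104478699-104480359) with 29.3 and 8.45 with Mettl14 knockdown, 28.1 and 12.2 with Mettl3 knockdown, and 30.9 and 67.8 in the scramble libraries. The authors' deposited log2 changes were −0.08 and −3.00 after Mettl14 knockdown and −0.75 and −2.48 with Mettl3 knockdown, so set 2 carried most of the difference. Fbxo32, the muscle-atrophy F-box protein atrogin-1, had a 3′ UTR site (chr15:58181133-58181527) with 210 and 18.6 with Mettl14 knockdown, 509 and 26.8 with Mettl3 knockdown, and 324 and 107 in the scramble libraries. The authors' deposited tables gave log2 changes of −0.62 and −2.52 after Mettl14 knockdown and 0.65 and −1.99 with Mettl3 knockdown. The 2 sets differ in level at this site in every group.

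Fbxl5, the iron-sensing receptor that targets iron regulatory protein 2, was steadier. Its coding site (chr5:43758285-43759036) had 12.2 and 7.27 with Mettl14 knockdown, 13.2 and 6.91 with Mettl3 knockdown, and 15.6 and 16.0 in the scramble libraries, so no knockdown library reached either control. The authors' deposited log2 changes were −0.35 and −1.14 after Mettl14 knockdown and −0.24 and −1.21 with Mettl3 knockdown. Relative to the table medians these were −0.29 and −0.55, and −0.46 and −0.30, and the widths were 91.1% to 98.5% of the scramble widths. Klhl25, a Cul3 receptor for the translation repressor 4E-BP1, held a 3′ UTR site (chr7:75872731-75873313) with 10.7 and 7.47 with Mettl14 knockdown, 17.1 and no peak with Mettl3 knockdown, and 21.7 and 19.2 in the scramble libraries. Its wide coding site had 12.3 and 7.46 with Mettl14 knockdown, 17.5 and 5.05 with Mettl3 knockdown, and 13.4 and 10.2 in the scramble libraries. The groups therefore separated at the 3′ UTR site and overlapped at the coding site.

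A pair of Rnf genes and Trim39 had a similar order of values. Rnf122 had 31.5 and 12.4 at its 3′ UTR site (chr8:31128585-31129129) with Mettl14 knockdown, 21.5 and no peak with Mettl3 knockdown, and 46.0 and 29.3 in the scramble libraries. Rnf157 had 37.2 and 17.4 at its 3′ UTR site (chr11:116338192-116338791) with Mettl14 knockdown, 38.2 and no peak with Mettl3 knockdown, and 52.7 and 34.7 in the scramble libraries. Trim39, whose coding site lies at chr17:36260301-36261020, had 14.8 and 11.0 with Mettl14 knockdown, 23.6 and 6.74 with Mettl3 knockdown, and 24.9 and 18.6 in the scramble libraries. Within each set the scramble library was the highest at these 3 sites, although values overlapped across sets.

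Trim56, a ligase of innate immune signalling, had 30.8 and 12.9 at its coding site (chr5:137113372-137114755) with Mettl14 knockdown, 17.5 and 6.09 with Mettl3 knockdown, and 31.2 and 28.7 in the scramble libraries. The authors' deposited log2 changes at the longest overlap were −0.21 and −1.15 after Mettl14 knockdown and −1.26 and −2.24 with Mettl3 knockdown. The peak is split in most libraries, so widths differ there. Among deubiquitinases, Usp43 had 16.9 and 18.6 at its coding site with Mettl14 knockdown, 15.5 and 11.8 with Mettl3 knockdown, and 19.1 and 42.05 in the scramble libraries. Usp47, which acts on DNA polymerase beta in base excision repair, had 8.72 and no peak at its 3′ UTR site (chr7:112109896-112110623) with Mettl14 knockdown, 11.1 and 4.22 with Mettl3 knockdown, and 18.7 and 9.97 in the scramble libraries. Its coding site stayed closer, at 7.20 and 5.46 with Mettl14 knockdown, 6.55 and 3.30 with Mettl3 knockdown, and 6.91 and 6.93 in the scramble libraries. Klhl18, a Cul3 receptor for Aurora A in human cells, had 13.8 and no peak at its coding site with Mettl14 knockdown, 23.6 and 5.83 with Mettl3 knockdown, and 37.0 and 13.3 in the scramble libraries. Usp27x, an X-linked deubiquitinase, had 16.2 and no peak at its coding site with Mettl14 knockdown, 12.7 and 6.41 with Mettl3 knockdown, and 13.7 and 23.2 in the scramble libraries.

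As deposited, sites with a positive log2 change in both sets were fewer than those with a negative one, which relative to the table medians was not so (28 against 15 with Mettl14 knockdown and 24 against 21 with Mettl3 knockdown). Fbxo10, which targets BCL2 in human cells, had 24.3 and 24.7 at its coding site (chr4:45058313-45059212) with Mettl14 knockdown, 22.4 and 13.9 with Mettl3 knockdown, and 20.9 and 16.7 in the scramble libraries. The authors' deposited log2 changes were 0.22 and 0.56 after Mettl14 knockdown and 0.10 and −0.26 with Mettl3 knockdown, with knockdown peaks 61.6% to 70.2% as wide. Relative to the table medians the Mettl3 values turn to −0.13 and 0.65. Ube2o, a large enzyme with both E2 and E3 activity, had 12.0 and 7.40 at its second coding site with Mettl14 knockdown, 12.4 and 5.07 with Mettl3 knockdown, and 10.3 and 7.10 in the scramble libraries. The authors' deposited log2 changes there were 0.22 and 0.06 after Mettl14 knockdown and 0.27 and −0.49 with Mettl3 knockdown, the last being 0.43 relative to the table median. For Usp31 the authors' deposited tables gave 0.42 and 0.17 after Mettl14 knockdown and −0.15 and 0.01 after Mettl3 knockdown on the log2 scale, at the longest overlaps. Its coding peak is 1 piece in most knockdown libraries and 2 pieces in both scramble libraries. The other overlap gave −0.07 and −0.33 with Mettl14 knockdown, so its direction as deposited depends on the piece. In the Mettl14 table of set 2 both overlaps lay above the table median of −0.59.

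Trim2, a ligase for neurofilament light chain, had 31.1 and no peak at its 3′ UTR site with Mettl14 knockdown, 41.6 and 12.9 with Mettl3 knockdown, and 36.15 and 12.3 in the scramble libraries. Trim36 had 41.0 and 49.0 at its coding site with Mettl14 knockdown, 149 and 55.35 with Mettl3 knockdown, and 28.5 and 51.5 in the scramble libraries. For Trim36 the authors' deposited tables gave changes of 0.53 and −0.07 after Mettl14 knockdown and 2.38 and 0.10 with Mettl3 knockdown, the last from a peak of 11 tags. The −0.07 is 0.52 relative to the table median. Rnf144b, an RBR-type ligase induced by p53, had 27.5 and 155 at its 3′ UTR site (chr13:47244402-47245085) with Mettl14 knockdown, 571 and 61.4 with Mettl3 knockdown, and 192 and 50.45 in the scramble libraries. The authors' deposited tables gave it log2 changes of −2.81 and 1.62 after Mettl14 knockdown and 1.57 and 0.28 with Mettl3 knockdown. The Mettl14 libraries thus lay on opposite sides of their controls.

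A few sites were listed with knockdown and in neither scramble library. Rnf139, a sterol-sensing ligase of the endoplasmic reticulum, had 12.6 and 40.9 at its coding site 2 (chr15:58899732-58900152) with Mettl14 knockdown, 24.5 and 15.4 with Mettl3 knockdown, and no scramble peak. Its site 1, upstream, had 52.0 with Mettl3 knockdown in set 1, no peak in the other knockdown libraries, and 30.6 in the scramble library of set 1. Usp9x, an X-linked deubiquitinase of early development, had 5.40 and 4.20 at its coding site (chrX:13156003-13156754) with Mettl14 knockdown, 5.63 and 3.28 with Mettl3 knockdown, and no scramble peak. These peaks were weak but deeply covered, with 147 to 196 tags. Fbxl17, an F-box protein that removes mismatched BTB dimers, had 111 and 118 with Mettl14 knockdown at a site outside the exons of its transcript, 191 with Mettl3 knockdown in set 1, and no other peak. Its peaks held 15 to 20 tags. Fbxo46 had 168 and 18.6 at a 5′ UTR site with Mettl3 knockdown, from 8 and 16 tags, and none in the Mettl14 or scramble libraries.

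Klhl24, an adaptor in keratin turnover, and Usp34, a large deubiquitinase of the Wnt pathway, were called higher in all tables in part because the scramble library of set 2 listed no peak at their coding sites. Klhl24 had 16.7 and 6.91 with Mettl14 knockdown, 18.8 and 7.75 with Mettl3 knockdown, and 12.2 and no peak in the scramble libraries. Usp34 had 10.2 and 5.35 with Mettl14 knockdown, 10.5 and 5.30 with Mettl3 knockdown, and 6.98 and no peak in the scramble libraries.

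Some of the strongest member sites differed widely between the sets. Klhl34 had 425 and 13.5 at its coding site 2 (chrX:157819527-157820394) with Mettl14 knockdown, 221 and 14.0 with Mettl3 knockdown, and 48.0 and 85.3 in the scramble libraries. The authors' deposited log2 changes were 3.15 and −2.66 after Mettl14 knockdown and 2.20 and −2.61 with Mettl3 knockdown, opposite between sets for each knockdown. Usp35 had 29.8 and 21.1 at its coding site with Mettl14 knockdown, 88.2 and 13.6 with Mettl3 knockdown, and 29.3 and 58.1 in the scramble libraries, again with set 1 at or above and set 2 below its control. The Klhl34 peaks held 28 to 45 tags in the knockdown libraries.

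Members with several peaks often had peaks of different fate, and so did other genes. Of the members with 2 or more scramble peaks, 17 of 42 and 10 of 26 lost some and kept others with Mettl14 knockdown, and 25 of 42 and 11 of 26 with Mettl3 knockdown. Among other genes 640 of 1322 and 371 of 775 did so with Mettl14 knockdown, and 682 of 1322 and 389 of 775 with Mettl3 knockdown. The member share was below that of other genes in every table except the Mettl3 table of set 1. Rnf213, a very large ligase with an ATPase core, was such a gene in every table. Its coding site 3 (chr11:119440197-119442068) had 19.9 and 17.9 with Mettl14 knockdown, 30.9 and 9.44 with Mettl3 knockdown, and 21.6 and 21.8 in the scramble libraries. Its site 4, less than 1 kb downstream, had no Mettl14 knockdown peak, 28.2 with Mettl3 knockdown in set 1 and none in set 2, and 31.2 and 16.4 in the scramble libraries. Trim26 kept its wide stop codon site, with 16.7 and 14.1 with Mettl14 knockdown, 27.1 and 7.36 with Mettl3 knockdown, and 20.4 and 17.5 in the scramble libraries. Its 2 narrower sites upstream were listed in the scramble library of set 1 and, of the knockdown libraries, once, with Mettl3 knockdown in set 2. Fbxo10 kept its coding site and lost its 3′ UTR site, which had no knockdown peak and 15.0 and 13.65 in the scramble libraries.

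Of 31 genes of these families on a list of roles in ES cells or early development, 21 had a listed peak. Trim71, the mammalian homologue of the RNA-binding ligase LIN-41, had a wide 5′ site (chr9:114562258-114564432) with 10.7 and 5.15 with Mettl14 knockdown, 11.7 and 4.54 with Mettl3 knockdown, and 8.26 and 7.53 in the scramble libraries. It was 1 peak in the scramble libraries and up to 3 in the knockdown libraries. At its longest overlaps the authors' deposited log2 changes were −0.42 and −0.55 after Mettl14 knockdown and −0.32 and −1.22 with Mettl3 knockdown, where −0.55 becomes 0.05 relative to the table median. Usp16, which removes ubiquitin from histone H2A, had 14.7 and 10.8 at its coding site with Mettl14 knockdown, 14.0 and 8.24 with Mettl3 knockdown, and 19.6 and 12.2 in the scramble libraries. Trim6, which acts on Myc in ES cells, had 6.85 and no peak with Mettl14 knockdown, 9.41 and 3.96 with Mettl3 knockdown, and 8.91 and 8.04 in the scramble libraries. Trim8 was listed at both its sites in all 6 libraries, with 10.9 and 4.98 at the 5′ UTR site with Mettl14 knockdown, 17.0 and 5.27 with Mettl3 knockdown, and 9.95 and 7.59 in the scramble libraries. At these 4 genes no knockdown library of set 2 reached its own control, and relative to the table medians the directions were mixed.

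Among Wnt regulators of that list, Rnf43, which removes Frizzled receptors, had 68.7 and 140 at its 5′ UTR site with Mettl14 knockdown, no peak with Mettl3 knockdown, and 138 and no peak in the scramble libraries. Rnf220, which stabilises beta-catenin, had 15.8 and no peak at its coding site with Mettl14 knockdown, 33.9 and no peak with Mettl3 knockdown, and 11.0 and 9.98 in the scramble libraries. Trim33 and Trim24, transcriptional cofactors, had no scramble peak in set 2. Of the cullin scaffolds, Cul1 had 13.2 and 5.32 at its 3′ UTR site with Mettl14 knockdown, 20.8 and 4.99 with Mettl3 knockdown, and 16.6 and 7.50 in the scramble libraries. Cul3, Cul4b and Cul7 were each listed in 1 library. Herc2, a giant HECT ligase of the DNA damage response, had 15.6 and 23.2 at its stop codon site (chr7:56230847-56231410) with Mettl14 knockdown, 23.6 and 12.6 with Mettl3 knockdown, and 32.9 and 28.3 in the scramble libraries. All 4 knockdown values there were below both controls, with widths of 95.6% to 107% of the scramble width, and the authors' deposited log2 changes were −1.08 and −0.28 after Mettl14 knockdown and −0.48 and −1.16 with Mettl3 knockdown. Relative to the table medians these were −1.02 and 0.31, and −0.70 and −0.25, so the sign in the Mettl14 table of set 2 turns. Klhl9, a Cul3 receptor needed for mitosis, had 13.9 and 9.37 with Mettl14 knockdown, 20.2 and 7.45 with Mettl3 knockdown, and 13.6 and 9.41 in the scramble libraries. Ube3a, the HECT ligase of Angelman syndrome, and Usp28, which stabilises Myc, each had 1 peak, in the scramble library of set 1. Fbxo5, an inhibitor of the anaphase-promoting complex, was listed with Mettl3 knockdown in set 1 alone, and Usp44 in knockdown libraries alone.

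Of 78 other genes of the ubiquitin system, 38 had a listed peak. Of the 28 listed in both Mettl14 tables, 11 were lower in both sets, against 41.7% of all genes, and 0 higher, against 7.60%. Of the 29 listed in both Mettl3 tables, 12 were lower, against 33.5%, and 1 higher, against 5.82%. Other RING ligases were listed in 21 of 27 cases, but fewer were listed in both tables of a knockdown, as a call in both sets requires. Of those, 4 were lower in both sets after Mettl14 knockdown and 5 with Mettl3 knockdown. Other deubiquitinases were listed in 7 of 17 cases, again with fewer in both tables of a knockdown, and 3 were lower in both sets with either knockdown. How many RING ligases and deubiquitinases were listed in both tables is not given here. Their counts therefore cannot be set against the shares of all genes. Of the E1 and ubiquitin genes, Uba6, the alternative activating enzyme, was the 1 of 10 that was listed.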

How the data were processed

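Per the labels' protocols, m6A-immunoprecipitated poly(A) RNA was made into ScriptSeq v2 libraries and sequenced on an Illumina instrument. The submitters' processing notes name TopHat2 2.0.6, Bowtie 0.12.7, Picard 1.74, SAMtools 0.1.18, CASAVA 1.8.2, cutadapt 1.1 and mm10. Per the file headers, the authors called peaks with MACS for each immunoprecipitated library against its own input, without pooling. The deposited tables give, for each peak, a count of tags, a score made from the caller's p-value, the fold enrichment over input, its value scaled by 1 constant per table (0.906 and 0.777 for Mettl14, 1.00 and 0.609 for Mettl3, sets 1 and 2), the scaled difference between paired peaks, and a false discovery rate as a percentage, at most 9.99%. All such peak values are the authors'. Tags and rates of scramble peaks are listed only where a peak is lost in a table. Total reads per library are unknown, and the libraries without antibody are not analysed here.

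Fates were recomputed from coordinates and differed from the authors' marks in 0 cases; the fate step was tested on simulated peaks. Sites, places and motifs used GENCODE M21 basic transcripts (longest coding sequence), with which 166 of 167 members matched. Trim60 and Trim61, and Trim47 and Trim65, share an interval that counts for each. Libraries were compared with a two-sided exact permutation test (15 splits), and within sets (9 arrangements). Named genes were those that lost all peaks, the sites with the lowest or highest change or new in both sets, the genes with the most sites, the strongest sites, and a list of ES cell roles. Members and lists were chosen with earlier results of these data known. Python 3.11.15, pandas 2.3.3, NumPy 2.4.6, SciPy 1.17.1 and matplotlib 3.10.9 were used.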

Additional observations from a re-analysis of the deposited data

Results flagged for a closer look

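At site 2 of Trim45, a RING ligase, the knockdowns pointed in opposite directions: the authors' deposited log2 changes were 0.040 and 0.023 in the Mettl14 tables of sets 1 and 2, and −0.43 and −1.40 in the Mettl3 tables. Its scaled enrichment was 18.4 and 15.3 with Mettl14 knockdown, 13.3 and 5.71 with Mettl3 knockdown, and 17.9 and 15.0 in the scramble libraries. Both Mettl14 changes are close to 0, the tables of a set share their scramble library, and the difference between the knockdowns was not tested.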

How the results depend on the processing

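The mean over sets of the median log2 change of the members' shared peaks, −0.23 with Mettl14 knockdown and −0.25 with Mettl3 knockdown, reversed without the scaling constants (0.021 and 0.11) and with each table's median set to 0 (0.10 and 0.10). Leaving out a set gave −0.46 to −0.00053 with Mettl14 knockdown and −0.76 to 0.27 with Mettl3 knockdown. The count of members higher in both sets was 5 for Mettl14 and 8 for Mettl3 knockdown, and became 13 and 21 without the constants (13.1% and 15.7% of all genes) and 16 and 18 with the medians at 0 (15.7% and 14.8% of all genes). In a single set 83 to 89 members were lower and 23 to 43 higher with Mettl14 knockdown, and 63 to 91 lower and 11 to 58 higher with Mettl3 knockdown.

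Keeping knockdown peaks with a false discovery rate of at most 1%, an alternative chosen after seeing the data, gave a share of lost peaks of 62.2% with Mettl14 knockdown and 52.5% with Mettl3 knockdown, against 37.2% and 34.2%, and a share of new peaks of 6.29% and 2.35%, against 19.8% and 12.8%. At 5% the lost share was 43.9% with Mettl14 knockdown. Knockdown peaks alone were filtered and every scramble peak was kept, so the lost share could only rise. The filtered shares over all peaks are not given here, so members cannot be set against them. A filter on both libraries was not run, since rates of shared scramble peaks are not listed. Without the scramble library of set 1 the difference in member peaks per library was −6.75 (exact permutation p = 1.0), against −35.75, and without that of set 2 it was −64.75. Of 63 alternatives 42 left the value on the same side and within the limits set, 16 moved it and 5 reversed it.

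The labels' replicate numbers could not be tied to the sets, so the set itself was used as a replicate block, an alternative chosen after seeing the data. The difference in member peaks per library was then −35.75 and that in covered length −41.1 kb, the same as without the block. Each had an exact permutation p of 0.111, the smallest that 9 arrangements within sets allow. No lower p was possible, so the block could not change either call and is no check on it.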
